A study of Schizosaccharomyces pombe with 6 samples.

Results

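Nuclear to mitochondrial contacts in *Schizosaccharomyces pombe* were taken from a genome conformation capture (GCC) series, from 1 deposited table for each phase. They are every pair there in which 1 AseI fragment lay on the mitochondrial sequence and the other on a nuclear chromosome. There were 5453 different pairs over the 3 phases. They were 2414 of 88201 pairs in the G1 table, 1967 of 75965 in the G2 table and 3141 of 64248 in the M table. GCC joins AseI fragments that were cross-linked together and counts the read pairs that span each junction, so a count is a number of read pairs. The cultures were arrested for 4 h at 36 °C by temperature-sensitive alleles, cdc10-129 in strain MY291 for G1 phase, cdc25-22 in MY284 for G2 phase and nuc2-663 in MY286 for M phase. Every group was therefore a mutant held at the restrictive temperature, and strain, phase and library preparation cannot be told apart. Each phase is 1 table that pools 2 biological replicates, so no value below has a replicate error and each test compares pooled tables.

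Mitochondrial DNA is a small circular genome held in many copies outside the nucleus. It encodes the 2 mitochondrial ribosomal RNAs, transfer RNAs and a few subunits of the respiratory chain and ATP synthase. Pieces of it have been copied into nuclear chromosomes during evolution, and such nuclear copies of mitochondrial DNA are called NUMTs. The nuclear ribosomal DNA (rDNA) is an array of tandem repeats that forms the nucleolus, and in fission yeast it lies at both ends of chromosome III.

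AseI cuts at attaat and divides the mitochondrial sequence into 38 fragments of 4 to 1995 bp. The nuclear reference sequence (ASM294v3) shared 12 exact stretches of at least 25 bp with mitochondrial DNA, and these touched 14 nuclear fragments. The sequences of 5 of these stretches are shown because their fragments carried most of the counts on nuclear fragments without a nuclear repeat. Capitals mark the exact match, lower case marks 25 bases on each side, and each nuclear copy is written on the strand that matches the mitochondrial plus strand.
Nuclear I:3810354-3810459, minus strand: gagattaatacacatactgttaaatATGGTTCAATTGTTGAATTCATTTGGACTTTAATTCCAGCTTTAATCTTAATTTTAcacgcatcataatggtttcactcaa
Mitochondrial mt:18755-18860, plus strand: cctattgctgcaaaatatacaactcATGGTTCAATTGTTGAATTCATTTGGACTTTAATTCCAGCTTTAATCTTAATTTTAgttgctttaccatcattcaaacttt
Nuclear II:36878-37074, plus strand: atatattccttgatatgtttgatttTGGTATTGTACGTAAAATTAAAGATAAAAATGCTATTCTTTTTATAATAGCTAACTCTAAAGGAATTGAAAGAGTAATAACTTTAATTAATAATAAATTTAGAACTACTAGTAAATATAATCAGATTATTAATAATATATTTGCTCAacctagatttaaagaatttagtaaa
Mitochondrial mt:7200-7396, plus strand: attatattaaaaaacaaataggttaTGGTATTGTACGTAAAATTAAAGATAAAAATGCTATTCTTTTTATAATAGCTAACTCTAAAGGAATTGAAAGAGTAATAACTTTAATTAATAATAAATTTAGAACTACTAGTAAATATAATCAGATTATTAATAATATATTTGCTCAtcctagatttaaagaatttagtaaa
Nuclear II:37162-37266, plus strand: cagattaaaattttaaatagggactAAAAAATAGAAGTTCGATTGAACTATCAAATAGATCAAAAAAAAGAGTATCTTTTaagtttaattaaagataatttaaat
Mitochondrial mt:7478-7582, plus strand: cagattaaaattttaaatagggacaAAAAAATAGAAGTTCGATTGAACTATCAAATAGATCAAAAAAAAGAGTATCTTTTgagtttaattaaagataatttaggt
Nuclear I:79556-79634, plus strand: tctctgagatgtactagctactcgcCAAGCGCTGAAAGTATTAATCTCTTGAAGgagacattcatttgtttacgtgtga
Mitochondrial mt:4390-4468, plus strand: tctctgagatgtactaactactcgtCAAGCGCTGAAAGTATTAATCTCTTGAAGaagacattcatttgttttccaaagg
Nuclear I:4619163-4619237, minus strand: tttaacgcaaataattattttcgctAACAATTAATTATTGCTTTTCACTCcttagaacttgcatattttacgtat
Mitochondrial mt:7130-7204, plus strand: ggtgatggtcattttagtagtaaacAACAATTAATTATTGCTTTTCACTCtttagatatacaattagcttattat

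The first stretch, of 56 bp, lies within mitochondrial cox2, which encodes subunit 2 of cytochrome c oxidase. Its nuclear copy lies between genes, 332 bp from tma19, the gene of a translation-associated protein. The stretches on chromosome II, of 147 and 55 bp, come from the second intron of cox1, inside the open reading frame cox1-I2b that the intron carries. The 147 bp stretch holds 2 AseI sites, so cutting divides the mitochondrial and the nuclear copy in the same places. The 29 bp stretch belongs to rns, the small ribosomal RNA gene, and the 25 bp stretch to cox1-I2b, and each spans an AseI site in both genomes. Fragment coordinates below are those of the deposited tables, which run several kb behind ASM294v3 on the distal part of chromosome I.

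The mitochondrial to nuclear pairs held 8725 counts in G1, 7421 in G2 and 9099 in M. Set against all counts between non-adjacent nuclear fragments plus their own, they made up 0.422% in G1 (95% Wilson interval 0.414 to 0.431%), 0.337% in G2 (0.329 to 0.344%) and 0.427% in M (0.419 to 0.436%). These intervals cover counting error only. Without the 3 pairs with the most counts the shares were 0.384%, 0.301% and 0.346%, so that M phase then lay below G1 phase. Of the pairs, by number, 2.78% were mitochondrial to nuclear in G1, 2.67% in G2 and 5.01% in M. The share of pairs was 2.34 percentage points higher in M phase than in G2 phase and 2.23 points higher than in G1 phase (two-sided Fisher's exact tests, adjusted p = 7.22e-113 and 4.05e-110), while G1 and G2 phase differed by 0.106 points (adjusted p = 0.197). No count joined a mitochondrial fragment to either control plasmid in any phase, which allows up to 3 counts where a plasmid was present. Per the study's methods, the plasmid used as ligation control went into the G2 phase samples only. Its absence from G1 and M phase was therefore fixed in advance. The other plasmid was added before the preparation for sequencing. The study reported few ligations to either, so no conclusion on random joining of mitochondrial DNA is drawn.

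Most of these contacts were single read pairs. A count of 1 made up 70.0% of the pairs in G1, 69.2% in G2 and 74.1% in M. The number of significant pairs, those with at least 3 counts, was 417 in G1, 375 in G2 and 462 in M. That was 17.3%, 19.1% and 14.7% of the mitochondrial to nuclear pairs, beside 17.9%, 19.3% and 16.2% of the non-adjacent nuclear pairs of the same tables, so the share past the cut-off lay near the background. Over the 3 phases, 586 of 5453 pairs (10.7%) were captured in every phase, beside 10.7% of nuclear pairs. Among significant pairs 226 of 673 (33.6%) passed the cut-off in every phase, beside 37.7% of nuclear pairs. M phase held 158 pairs (23.5%) that were significant there alone, and 4.56% of the significant nuclear pairs were significant in M phase alone.

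The 3 pairs with the most counts all joined a mitochondrial fragment to the nuclear fragment that carries its copy. They were chosen by their counts, so these values are a description. The mitochondrial fragment at 17882 to 19077, which holds rnpB (the RNA of RNase P), the end of atp9 and most of cox2, was joined to chromosome I at 3803244 to 3804303 by 418 counts in G1, 387 in G2 and 783 in M. The cox1 intron fragment at 7162 to 7312 was joined to chromosome II at 34939 to 36989 by 212, 206 and 729 counts. The next fragment but 1 along the intron, at 7355 to 7660, was joined to chromosome II at 37080 to 38258 by 173, 197 and 236 counts. All 3 pairs were highest in M phase and near equal in G1 and G2 phase.

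Together these 3 pairs carried 9.20% of the mitochondrial to nuclear counts in G1, 10.6% in G2 and 19.2% in M. The nuclear fragment near tma19 had 23, 27 and 16 counts with all non-adjacent nuclear fragments together. Its mitochondrial counts therefore lay almost entirely in 1 pair, which held 99.5%, 99.5% and 99.6% of them. The fragments of these pairs are precisely the 3 nuclear fragments that hold within their ends an exact mitochondrial stretch of at least 50 bp, and a read inside a shared stretch cannot be assigned to the nucleus or the mitochondrion by its sequence.

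The chromosome II copy extends over 4 nuclear fragments of 2051, 42, 48 and 1179 bp, and the mitochondrial cox1 intron is cut there into fragments of 151, 42 and 306 bp. The cuts on both sides of the 42 bp fragments are shared, and the cut after the nuclear 48 bp fragment is not present in the mitochondrial reference. Counts between these 4 nuclear fragments and the 5 mitochondrial fragments that cover and flank the stretch summed to 607 in G1, 612 in G2 and 1557 in M. Contacts among the 4 nuclear fragments themselves summed to 46, 79 and 61 counts, and contacts among the 5 mitochondrial fragments to 158, 124 and 490. Outside the 3 leading pairs, the larger counts of the block lay mostly between a fragment and a neighbour of its copy. The mitochondrial fragment at 6623 to 7161, which lies just before the copied part, was joined to the nuclear fragment at 34939 to 36989 by 73, 42 and 161 counts. The nuclear 42 bp fragment at 36990 to 37031, identical throughout to mitochondrial sequence, was joined to the mitochondrial 151 bp fragment by 51, 39 and 121 counts and to the 306 bp fragment by 35, 32 and 130. It had 0 counts with its own 42 bp copy in all phases.

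**Figure D1:**
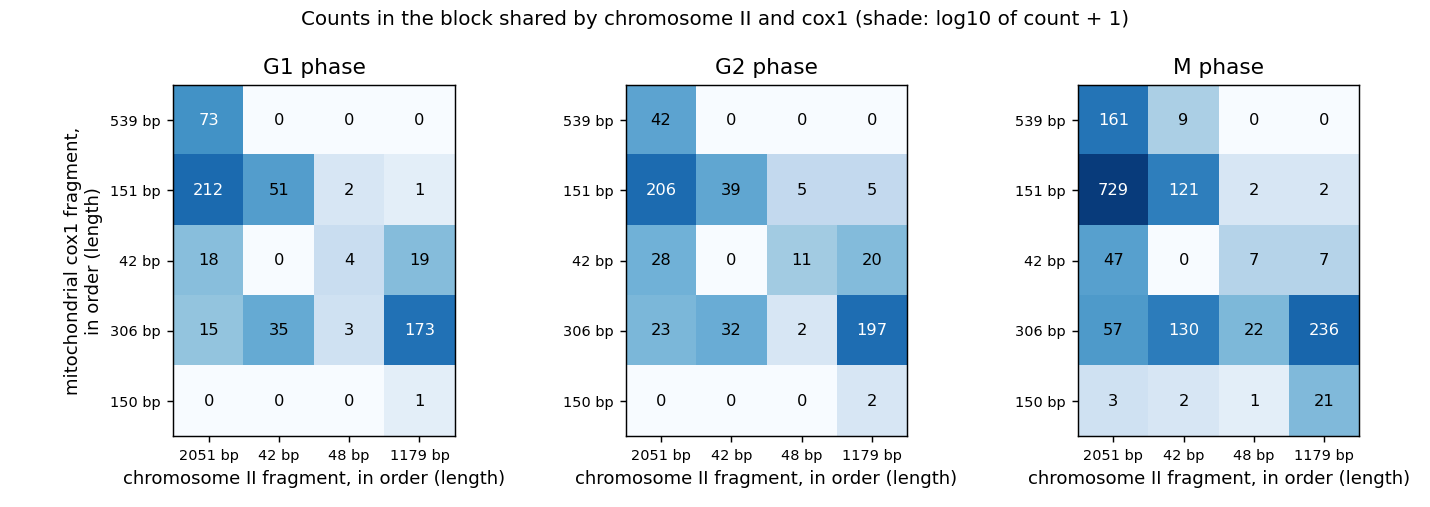
Counts between 4 neighbouring chromosome II fragments (columns, in order, with length in bp) and 5 neighbouring mitochondrial cox1 fragments (rows, in order, with length in bp), 1 panel for each phase, with the count printed in each cell. The 151 bp and 306 bp mitochondrial fragments meet the 2051 bp and 1179 bp nuclear fragments with 212 and 173 counts in G1 phase and 729 and 236 in M phase.

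Other nuclear copies gave counts where the shared stretch reached or lay near an AseI site. The fragment on chromosome I at 79184 to 79596 carried 18, 19 and 48 mitochondrial counts at G1, G2 and M, of which its pair with the rns fragment at 4127 to 4429 held 54 over all phases. The fragment on chromosome I at 4612395 to 4613054 carried 5, 9 and 36 counts. Both hold 1 side of a stretch that an AseI site cuts. The fragments on the other side of these cuts had few or no counts. The one at 79597 to 80639 had 4, 6 and 0, and the one at 4613055 to 4613199 had 0 in every phase. Outside the chromosome II block, the copies that lay 95 to 1773 bp from the nearest nuclear AseI site carried 0 counts, except 1 count in M phase on chromosome II at 3360888 to 3361218, a copy of part of the cob intron. Of the 14 nuclear fragments with a shared stretch, 9 had a mitochondrial count in at least 1 phase and 5 had none, which allows each up to 3 counts.

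In these tables, whose nuclear pairs mostly held a repeated fragment, rDNA led the nuclear classes in every phase. Its 20 fragments make up 0.304% of the nuclear length in the reference sequence. Per the study, the chromosome III sequence holds only a few rDNA repeats on each arm. That length share therefore does not take the copy number of the array into account. The 20 fragments held 5317 mitochondrial counts in G1, 4568 in G2 and 3453 in M. That was 60.9% of the mitochondrial to nuclear counts in G1 (95% Wilson interval 59.9 to 62.0%), 61.6% in G2 (60.4 to 62.7%) and 37.9% in M (37.0 to 39.0%). Without the 3 pairs with the most counts the shares were 67.1%, 68.9% and 47.0%. The rDNA share was thus lower in M phase with and without those pairs, by far more than the counting intervals. A lower M phase value was not particular to mitochondrial DNA. Repeat-free fragments of chromosomes I and II had 54837, 42197 and 23604 counts with the same rDNA fragments at G1, G2 and M. Pairs of 1 rDNA and 1 other nuclear fragment were 39483 of 84482 non-adjacent nuclear pairs in G1, 31439 of 71656 in G2 and 22321 of 59578 in M.

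Counted by number of pairs the difference was small. Pairs with rDNA were 493 of 2414 in G1 (20.4%), 456 of 1967 in G2 (23.2%) and 560 of 3141 in M (17.8%). The G2 phase share was 5.35 points above the M phase share (two-sided Fisher's exact test, adjusted p = 1.18e-05), the G1 phase share was 2.59 points above the M phase share (adjusted p = 0.0234), and the G1 phase share was 2.76 points below the G2 phase share (adjusted p = 0.0296). Over pairs with at least 3 counts neither G1 phase difference passed the threshold (Fisher's exact tests, adjusted p = 0.499 against G2 phase and 0.0860 against M phase). The difference between G1 and M phase also missed it without mitochondrial fragments under 50 bp (Fisher's exact test, adjusted p = 0.183), and that between G1 and G2 phase missed it when fragments crossing the limits of the class were not counted as rDNA (adjusted p = 0.0910). Of the mitochondrial to rDNA pairs, 64.3%, 64.3% and 57.9% had at least 3 counts. Among pairs of 1 rDNA and 1 other nuclear fragment the share was 19.9%, 19.2% and 11.7%. A pair with rDNA held 10.8 counts on average in G1, 10.02 in G2 and 6.17 in M, while pairs with LTR fragments held 1.26, 1.20 and 1.18.

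The remaining classes were thinly covered. Fragments annotated with a long terminal repeat (LTR), the end sequence of a retrotransposon, held 615 counts in G1, 448 in G2 and 513 in M. Centromere fragments held 742, 572 and 876 counts. Fragments within 50 kb of a chromosome end held 674, 549 and 1277 counts without the 3 leading pairs, and all other fragments held 574, 494 and 1232. The M phase increase of the ends lay mostly in the copy on chromosome II. Without the nuclear fragments that hold a mitochondrial stretch, the ends held 443 counts in G1, 327 in G2 and 477 in M, and the other fragments 549, 464 and 1144. Of the latter, repeated fragments held 448, 322 and 462 counts and fragments not called repeated 101, 142 and 682, so most of the M phase increase of that class lay in fragments not called repeated.

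**Figure D2:**
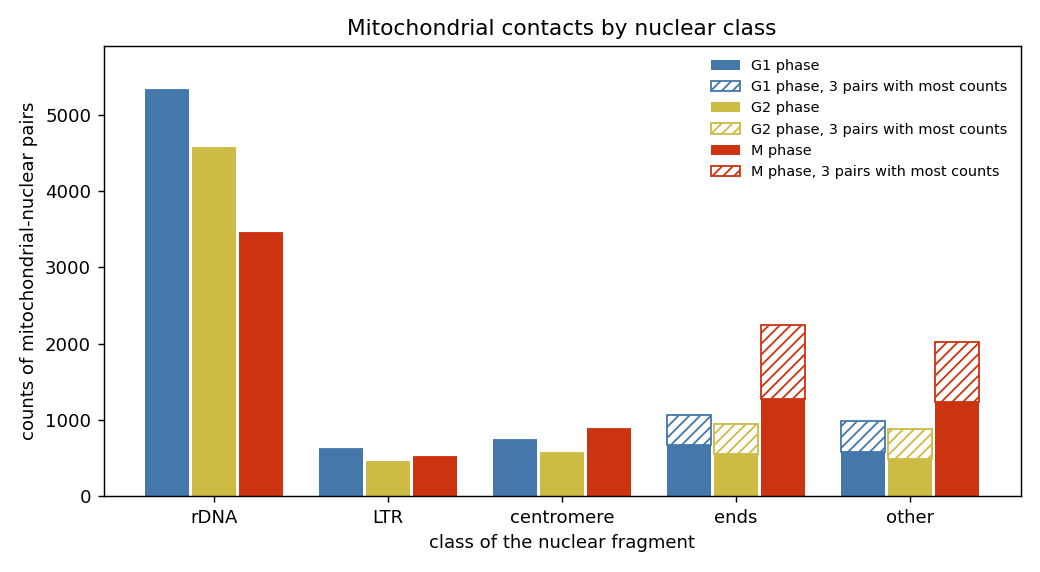
Counts of mitochondrial to nuclear pairs (vertical axis) by class of the nuclear fragment, as filled bars for each phase, with the 3 pairs that held the most counts stacked on top as hatched bars. The rDNA bars stand at 5317, 4568 and 3453 counts at G1, G2 and M, and the hatched part lies in the ends and other classes.

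Repeated nuclear sequence ran through these contacts, as it did through the nuclear pairs of the same tables. Of the mitochondrial to nuclear pairs, 98.4% in G1, 97.6% in G2 and 96.4% in M had a nuclear end with a repeated 50 bp stretch, a stretch shared between the genomes, or an end under 50 bp. The pairs with none of these numbered 39, 48 and 113 and held 46, 77 and 228 counts. A repeated nuclear fragment alone was present in 94.2%, 92.5% and 77.8% of the pairs and held 86.5%, 83.8% and 62.9% of the counts, so M phase had the lowest share of it. In the nuclear network of the same tables, where either end may be the repeated one, 97.4%, 93.4% and 94.9% of non-adjacent pairs had a repeated fragment. The tables thus hold few contacts between mitochondrial DNA and single-copy nuclear DNA, and the number captured before the tables were made was not analysed here. The shares of repeated fragments, of rDNA and of the nuclear copies therefore hold for these tables only. They are no measure of all contacts captured.

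The partners of mitochondrial DNA among repeated nuclear fragments were set beside those of nuclear fragments without repeats. For each class, the counts from the 30 mitochondrial fragments of at least 50 bp without a 50 bp nuclear stretch were divided by the counts from repeat-free nuclear fragments on other chromosomes. In G1 phase there were 8.87 mitochondrial counts for each 100 such nuclear counts on rDNA, 9.82 on LTR fragments, 9.47 on centromeres, 10.5 at ends and 8.78 elsewhere. In G2 phase the values ran from 7.58 on centromeres to 10.2 at ends, with rDNA at 9.95. In M phase they ran from 11.4 on LTR fragments to 15.2 at ends, with rDNA at 13.1. The ratios of all 5 classes were higher in M phase than in both other phases. On rDNA the mitochondrial counts were 4864, 4199 and 3091 and the nuclear counts 54821, 42196 and 23590 at G1, G2 and M. The nuclear counts were lowest in M phase in every class. The mitochondrial counts were lower in M phase than in G1 phase on rDNA, LTR and other fragments, and higher on centromeres and at ends. A higher ratio is thus not by itself a higher number of mitochondrial counts.

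**Figure D3:**
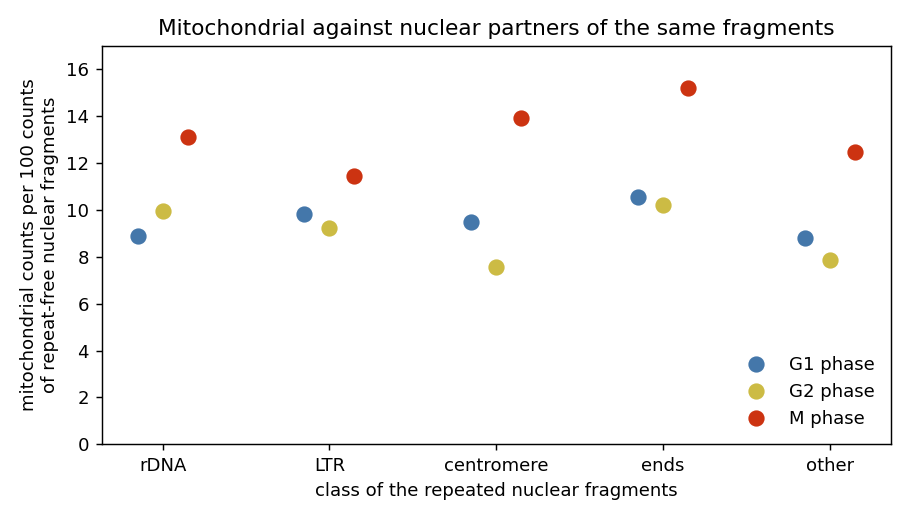
Mitochondrial counts for each 100 counts of repeat-free nuclear fragments on other chromosomes (vertical axis, from 0), for the repeated fragments of each nuclear class, 1 point for each phase. Points of G1 and G2 phase lie between 7.58 and 10.5 and those of M phase between 11.4 and 15.2.

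Fragment by fragment, the same likeness was seen. Over 720 repeated nuclear fragments without a mitochondrial stretch, mitochondrial counts and counts from repeat-free nuclear fragments of other chromosomes had a Pearson r of 0.998 in G1 and G2 phase and 0.989 in M phase. Without rDNA, over 701 fragments, r was 0.871, 0.861 and 0.887 and Spearman's rho 0.810, 0.701 and 0.770. The correlations are over fragments that share length, copy number and library, and fragments are not replicates, so they are a description only. In absolute terms, mitochondrial fragments of 300 to 2000 bp far exceeded nuclear fragments of like length, and shorter ones were not compared. The counts were not scaled by copy number, which is high for mitochondrial DNA, and the part of copy number in this excess was not tested. The 6 mitochondrial fragments of 600 to 1200 bp had 302.5 counts with rDNA on average in G1, 246.5 in G2 and 173.5 in M. The 1541 repeat-free fragments of that length on chromosomes I and II had 5.84, 4.23 and 2.26, a ratio of 51.8, 58.2 and 76.7. The lowest of the 6 mitochondrial fragments had 192 rDNA counts in G1 phase and the highest of the nuclear fragments 17, so the groups did not overlap.

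Within the rDNA, the 3 long fragments of 8386 or 8408 bp, which repeat the same part of the unit, took most of the counts. They held 60.9% of mitochondrial rDNA counts in G1, 66.2% in G2 and 54.0% in M, with 66.0% of the rDNA length. Among repeat-free nuclear partners the same fragments held 65.1%, 70.9% and 66.7%. The long copy at 1640 to 10025 had 1090, 1041 and 625 mitochondrial counts, the copy at 12510 to 20895 had 1070, 1038 and 643, and the copy at 2443227 to 2451634, on the other arm, had 1078, 943 and 597. The 3 copies differed little in any phase, and reads of identical copies cannot be told apart by sequence. The 1254 bp fragments at 10026, 20896 and 2441973 had 591, 590 and 542 counts over all phases. The fragments that cross the limits of the class, at 23380 to 24680 and 2439432 to 2440745, were counted as rDNA and had 101, 140 and 113 and 152, 106 and 118 counts.

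Short rDNA fragments were higher in M phase. The 104 bp fragment at 22150 to 22253 had 31 counts in G1, 15 in G2 and 49 in M, and its copy at 11280 to 11383 had 26, 17 and 45. The 3 long fragments were lower in M phase than in both other phases.

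Outside rDNA the fragments with the most counts were the nuclear copies described above, led by 34939 to 36989 on chromosome II with 1760 counts over all phases and 3803244 to 3804303 on chromosome I with 1595. The leading centromere and LTR fragments were long and repeated. On centromere I the fragment at 3756526 to 3762363 had 44, 31 and 24 counts, and on centromere II the fragments at 1605924 to 1610271, 1613296 to 1617406 and 1637609 to 1641956 had 75, 73 and 73 counts over all phases. Centromere III followed at 1081424 to 1087748 with 72 counts. Of LTR fragments, the one at 5560928 to 5564251 near the right end of chromosome I led with 60 counts, then 4017638 to 4020887 with 55, 1563811 to 1566920 with 45, both also on chromosome I, and 4505715 to 4508459 on chromosome II with 45. The fragment at 2922232 to 2929908 on chromosome I had 41. These counts were spread over 18 to 25 of the 38 mitochondrial fragments, unlike the counts of the 3 leading pairs. At the chromosome ends, after the 4 fragments of the chromosome II copy, the subtelomeric fragment of chromosome I at 16375 to 19318 had 19, 24 and 16 counts. Among other fragments, after the copies on chromosome I, the fragment of chromosome II at 1693518 to 1694969 had 8, 2 and 51 counts and the repeated one at 687952 to 699856 had 14, 14 and 9. The chromosome II fragment at 1693518 to 1694969 is free of nuclear repeats and its longest exact match to mitochondrial DNA was 17 bp. Its M phase counts were mostly with 2 neighbouring mitochondrial fragments, 28 with the one at 16943 to 17391 (atp8 and transfer RNA genes) and 16 with the one at 17392 to 17881 (transfer RNA genes).

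Nuclear genes for mitochondrial proteins were counted as 1 list. Of 9461 matched nuclear fragments, 1300 (13.7%) were joined to mitochondrial DNA in at least 1 phase. Of the 144 fragments that overlap the coding sequence of a gene whose reference product names mitochondria, 20 (13.9%) were joined. Among repeat-free fragments the shares were 8.07% of 8423 and 11.1% of 135.

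On the mitochondrial side, contacts followed the length of the fragment. Over all 38 fragments, counts with rDNA and fragment length had a Pearson r of 0.977 in G1, 0.972 in G2 and 0.982 in M, given as a description over fragments of 1 molecule. Of the fragments without a nuclear copy, the 3 longest had the most counts in every phase. The fragment at 2022 to 3810, with the end of rnl (the large ribosomal RNA gene), the start of rns and 3 transfer RNA genes, had 879 counts in G1, 704 in G2 and 586 in M. The fragment at 9434 to 11428, with the end of cox3 and the start of cob (cytochrome b of complex III), had 705, 545 and 569. The fragment of the first cox1 intron at 5244 to 6622 had 687, 505 and 412. Of the 10 pairs with the most counts that passed the cut-off in every phase, 6 joined the first or second of these fragments to a long rDNA copy. Fragments with a nuclear copy could stand higher, as the one at 17882 to 19077 did with 943, 792 and 1162 counts and the 151 bp one at 7162 to 7312 did in M phase with 1153. Without its leading pair the 151 bp fragment had 124, 124 and 424 counts.

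**Figure D4:**
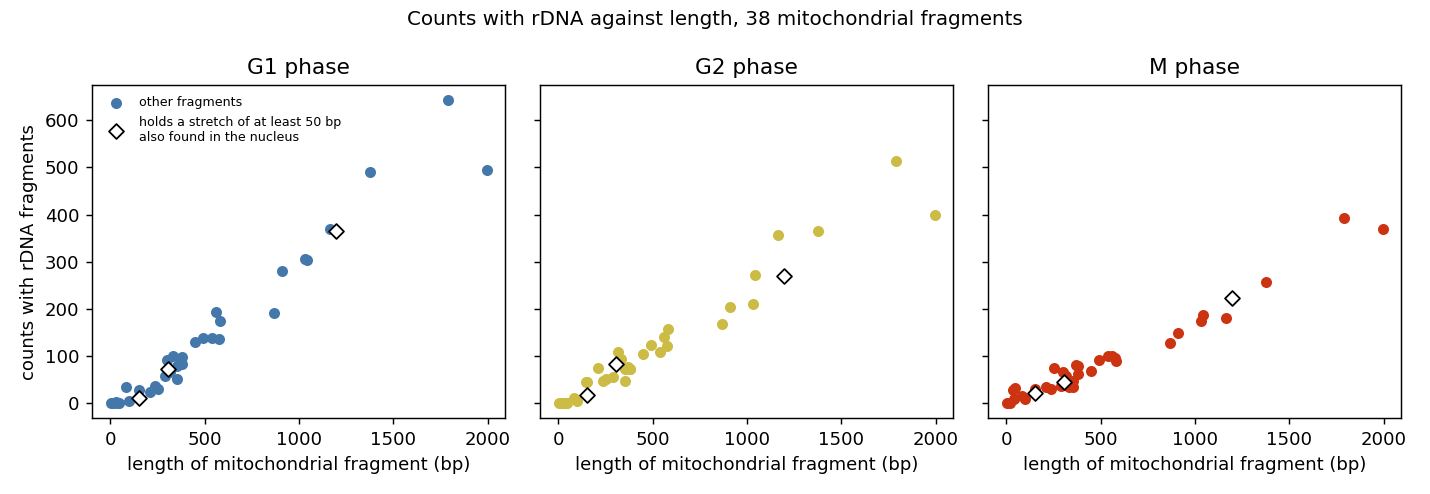
Counts with rDNA fragments (vertical axis) against fragment length in bp (horizontal axis) for the 38 mitochondrial fragments, 1 panel for each phase, with diamonds for the 3 fragments that hold a stretch of at least 50 bp also present in the nucleus. Points rise with length in all panels, to 643 counts in G1, 513 in G2 and 392 in M for the fragment with rnl and rns.

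Those 10 pairs can be read one by one. After the 3 pairs with nuclear copies came the rnl and rns fragment with the rDNA copies at 12510, 1640 and 2443227, with 149, 123 and 84 counts, 154, 111 and 84 counts, and 130, 112 and 82 counts at G1, G2 and M. The cox3 and cob fragment followed, with 110, 105 and 85 counts at the 12510 copy, 114, 98 and 71 at the 1640 copy and 103, 78 and 87 at the 2443227 copy. The pair of the cox1 fragment at 6623 to 7161 with the chromosome II copy, given above, completed them. The rDNA pairs of the rnl and rns fragment were lower in M phase at all 3 copies, whereas the pairs with nuclear copies were higher.

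Per kb of mitochondrial DNA, rDNA counts were compared between genes. Grouping fragments by the gene that covers most of each, the complex IV subunit genes cox1, cox2 and cox3 had 269, 268 and 297 rDNA counts per kb in G1 phase, and cob had 251. The ATP synthase genes atp6 and atp8 had 247 and 272. The ribosomal genes rnl, rns and rps3 (a ribosomal protein) had 332, 225 and 256, and fragments led by a transfer RNA gene had 289. In G2 phase the gene groups ran from 203 for cob to 288 for rnl, and in M phase from 154 for transfer RNA genes to 199 for atp8. Every gene group was lowest in M phase. The M phase place of atp8 rested on its 33 bp fragment at 16910 to 16942, with 818 rDNA counts per kb. Its 449 bp fragment at 16943 to 17391 had 153.7, below the 154.3 of the transfer RNA group. The genes atp9 and rnpB lead no fragment of their own and lie with cox2. Single fragments varied more than the groups. Over the 30 fragments of at least 50 bp without a nuclear stretch, the median was 253 rDNA counts per kb in G1 (range 49.5 to 414.6), 217 in G2 (39.6 to 352.4) and 168 in M (79.2 to 293.7).

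The highest fragments per kb were short or lay in or just before the copied part of cox1. Without the 3 leading pairs and over all phases together, the cox1 intron fragments at 7313 to 7354, 7162 to 7312, 7355 to 7660 and 6623 to 7161 had 9738, 4450, 2167 and 1525 counts per kb, and the atp8 fragment at 16910 to 16942 had 3121. The lowest were the 19 bp fragment at 16746 to 16764 with 105, the 4 bp fragment at 2018 to 2021 with 250, the rns fragment at 4430 to 4530 with 485, the cox2 fragment at 19078 to 19431 with 582 and the rps3 fragment at 16088 to 16375 with 792. The last 2 of these are of ordinary length.

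Some short mitochondrial fragments gained many partners in M phase. The 42 bp fragment at 7313 to 7354, which lies wholly in the 147 bp stretch shown above, had 10 nuclear partners in G1, 6 in G2 and 230 in M, with 48, 63 and 298 counts. The 33 bp fragment at 16910 to 16942, the start of atp8, had 2, 3 and 76 partners, and the 48 bp fragment at 12004 to 12051, in the cob intron, had 2, 0 and 46. The 4 bp fragment at 2018 to 2021 had 1, 0 and 0 partners, and the 19 bp fragment at 16746 to 16764 had 0, 0 and 2. All fragments under 50 bp together had 15, 9 and 354 pairs, which was 0.621%, 0.458% and 11.3% of mitochondrial to nuclear pairs. Nuclear pairs with a fragment under 50 bp made up 0.380%, 0.523% and 1.31% of the nuclear network in the same tables, so short fragments were more frequent in the M phase table there too. Without the mitochondrial fragments under 50 bp, 2787 pairs remained in M phase, beside 2399 in G1 phase and 1958 in G2 phase.

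The 151 bp cox1 fragment at 7162 to 7312 had a like pattern, with 69 partners in G1, 67 in G2 and 277 in M. Over the 30 fragments of at least 50 bp without a nuclear stretch, the number of partners in M phase was 0.714 to 1.89 times the higher of the G1 and G2 phase numbers, with a median of 1.09. At least 1.5 times as many were seen for 5 of them, among them the atp6 fragment at 14871 to 15122 with 31, 36 and 68 partners and the cox1 fragments at 7661 to 7810 with 21, 31 and 55 and at 8048 to 8401 with 40, 31 and 70. The fragment with rnl and rns had 172, 148 and 139, and the fragment at 9434 to 11428 had 159, 125 and 150. Among pairs whose nuclear fragment had neither a repeat nor a shared stretch, 97 in G1, 107 in G2 and 591 in M, the mitochondrial end was under 50 bp in 6, 4 and 222 and was 1 of the 3 fragments with a nuclear copy in 62, 63 and 250. Most of the M phase pairs with such nuclear fragments therefore had 1 of these mitochondrial fragments at the other end.

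**Figure D5:**
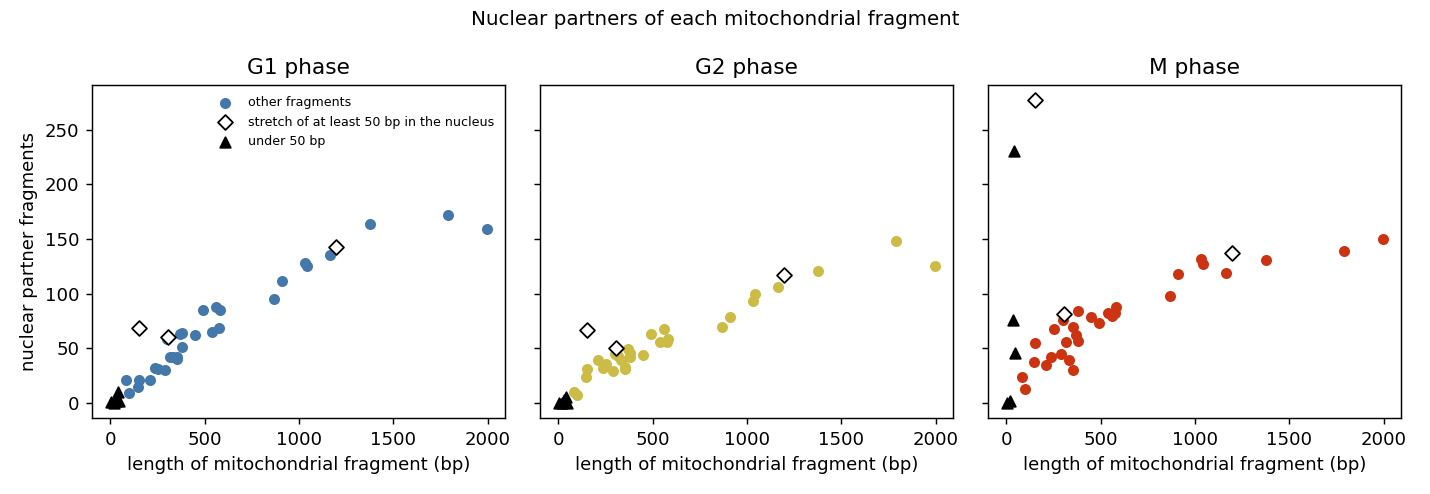
Number of nuclear partner fragments (vertical axis) of each of the 38 mitochondrial fragments against its length in bp (horizontal axis), 1 panel for each phase, with triangles for fragments under 50 bp and diamonds for the 3 fragments with a nuclear copy. In M phase the 151 bp diamond and the 42 bp triangle stand at 277 and 230 partners, and in G1 phase at 69 and 10.

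Contacts within the mitochondrial sequence were few in these tables. They numbered 14 pairs with 171 counts in G1, 20 with 139 in G2 and 104 with 783 in M. Of these counts, 158, 124 and 490 lay among the 5 cox1 fragments that cover and flank the part copied to chromosome II. Nearly all nuclear pairs of the same tables had a repeated fragment. The numbers are therefore no measure of how often mitochondrial fragments were joined to each other. The profile of counts over mitochondrial fragments, without the 3 leading pairs, had a Pearson r of 0.987 between G1 and G2 phase, 0.861 between G2 and M phase and 0.861 between G1 and M phase. Over the 30 fragments of at least 50 bp without a nuclear copy these were 0.986, 0.940 and 0.956, so the M phase profile lay nearer the others there. These correlations describe fragments whose counts share their length.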

How the data were processed

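Chromosomal interactions were measured by GCC in 6 libraries, 2 biological replicates for each of 3 phases, and the authors pooled the replicates of a phase in the table used here. The deposited counts are raw numbers of read pairs that joined 2 given AseI fragments, with no normalization and no cut-off on counts. Repeated fragments were 720 of 9464 nuclear fragments, yet they were in 97.4%, 93.4% and 94.9% of non-adjacent nuclear pairs at G1, G2 and M. All shares given here describe the pairs of these tables. How pairs were divided between these tables and the other one was not tested. Per the study's methods, read pairs of 50 bp ends, and single ends that held an AseI site, were positioned by the Topography suite with SOAP. The submitters' processing notes name the build ASM294v2. No per-sample column was left unused (0 columns), and the other table that the labels list per phase was not used.

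Each pair was used 1 time. Pairs of 1 mitochondrial and 1 nuclear fragment were the members, and non-adjacent pairs of different nuclear fragments were the comparison. Table depth was 2089241 counts in G1, 2242839 in G2 and 2146119 in M. Pairs were called significant from 3 counts upward, the cut-off of the study. Per its methods, the study's analyses used uniquely positioned pairs unless stated otherwise. No false detection rate was calculated here for the pairs of these tables, so significant means only at least 3 counts.

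Fragments were matched to the reference sequence (ASM294v3) by their AseI ends. Of 38 mitochondrial fragments, 33 matched with equal length and 5 were placed between their neighbours. Of 9464 nuclear fragments, 3 were not matched. A nuclear fragment was called repeated when a 50 bp stretch of it occurs elsewhere in the nuclear genome, and fragments under 50 bp were kept apart. Classes were assigned in the order rDNA (chromosome III, any part before base 24000 or after base 2440000), LTR (deposited annotation), centromere (I 3.75 to 3.79 Mb, II 1.6 to 1.65 Mb, III 1.07 to 1.14 Mb), ends (within 50 kb) and other.

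Shares have Wilson intervals at the 95% level, which cover counting error only, since amplified copies of a molecule count as separate reads. For differences between phases in numbers of pairs, Fisher's exact test (two-sided) was used, with Benjamini-Hochberg adjustment over the 3 phase pairs of each question. These p-values compare pooled tables, not replicates. The text names the 3 pairs with the most counts, the first 10 pairs past the cut-off in all phases, the mitochondrial fragments with the 5 highest and 5 lowest counts per kb, and the leading nuclear fragments of each class. The members, classes and lists were chosen with earlier results of these data known. The scripts for shared and repeated stretches were tested on simulated data. Python 3.11.15, pandas 2.3.3, numpy 2.4.6, scipy 1.17.1 and matplotlib 3.10.9 were used.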

Additional observations from a re-analysis of the deposited data

How the results depend on the processing

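No paired analysis was possible because the replicates of each phase are pooled in 1 table, and for the same reason no replicate could be left out. No alternative turned the direction of a tested difference between phases. The order of G1 and M phase did turn for 2 untested measures, the share of counts (higher in M phase as reported) and the number of significant pairs (462 in M phase and 417 in G1 phase as reported), under the settings given here. The share of counts that joined mitochondrial to nuclear DNA moved beyond its counting interval without the 3 leading pairs (0.384%, 0.301% and 0.346% at G1, G2 and M), with pairs of at least 3 counts (0.323%, 0.262% and 0.293%), without nuclear fragments with a 25 bp mitochondrial stretch (0.371%, 0.289% and 0.304%), M phase lying below G1 phase under these settings, without rDNA fragments (0.282%, 0.205% and 0.440%) and over repeat-free nuclear fragments at both ends of the comparison (29.6%, 12.2% and 48.8%), where the nuclear network is almost empty. Significant pairs numbered 725, 605 and 815 at 2 counts, 252, 236 and 244 at 5 counts, where M phase lay below G1 phase, 13, 22 and 52 over repeat-free fragments and 100, 82 and 138 without rDNA. The G1 to G2 difference in the share of pairs passed the threshold over repeat-free fragments (2.97 points, Fisher's exact test, adjusted p = 2.59e-08) and without rDNA (0.473 points, Fisher's exact test, adjusted p = 0.000285).

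The rDNA share of counts was 67.1%, 68.9% and 47.0% without the 3 leading pairs, 79.2%, 77.6% and 51.4% with pairs of at least 3 counts, and 69.4%, 71.7% and 53.4% without nuclear fragments with a mitochondrial stretch. The rDNA share of pairs lost its G1 to G2 difference (-2.11 points, Fisher's exact test, adjusted p = 0.499) and its G1 to M difference (5.89 points, Fisher's exact test, adjusted p = 0.0860) with pairs of at least 3 counts. Of the alternatives chosen after seeing the data, leaving out mitochondrial fragments under 50 bp gave an M phase share of counts of 0.406% (0.420% in G1 phase), an M phase rDNA share of 39.2% and a G1 to M difference in the rDNA share of pairs of 1.47 points (Fisher's exact test, adjusted p = 0.183). Counting as rDNA only fragments wholly inside the limits gave rDNA shares of counts of 58.0%, 58.2% and 35.4% and a G1 to G2 difference of -2.06 points (Fisher's exact test, adjusted p = 0.0910). The cause of these changes was not tested beyond the fragments each alternative removes. The deposited rRNA annotation, which also marks dispersed 5S genes, and all pairs of the table as denominator changed no call.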
